A study of Mus musculus with 18 samples.

Results

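Livers of young mice treated with a scrambled control oligonucleotide were compared between postnatal day 7 (P7) and postnatal day 14 (P14). The comparison uses 6 of the 18 liver libraries of the series, 3 at each age, chosen by age and injected oligonucleotide in the sample titles and by no measured value. C57BL/6J pups had been given a scrambled, stabilized microRNA mimic into the peritoneal cavity on days 1 and 3 after birth. Pups of both ages were injected on the same days, and the series holds no uninjected liver. Age and time since injection therefore cannot be told apart in any result below. The study used the scrambled oligonucleotide as the control for a mimic of miR-497a-5p, and a group of 3 livers given that mimic exists at each age as well. Livers of postnatal day 5 (P5), under both oligonucleotides and injected on the same days, enter the fit over all libraries. Values of the P5 scrambled livers are shown beside the others without a test. Doses of 10 and 100 mg per kg were in use, and which of them a given liver received is not stated with its library. Each library is named here by its age and its replicate number. The labels do not name litters or sexes, so the p-values measure the spread between these livers.

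The liver changes its work between birth and weaning. Before birth it is the main site of blood formation, and the islands of red cell, platelet and granulocyte precursors between the hepatocytes disappear after birth as the marrow takes over. Hepatocytes, the main cells of the organ, divide fast in the newborn, then slow, silence a set of fetal genes and acquire the enzymes that break down amino acids, make bile acids and clear drugs. Between P7 and P14 pups still live on milk, which is rich in fat and cholesterol. In RNA from whole liver, fewer cells of a type and less RNA per cell cannot be told apart, and this holds for every cell type below.

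Values are scaled counts: reads per gene after the authors' correction for library depth, rounded to whole numbers. A log2 difference is the P14 mean minus the P7 mean of log2(scaled count + 1), which understates the change of genes with low values. A gene is said to rise or fall where its adjusted p in limma, a linear model fitted to all 18 libraries and 14104 genes at once, is under 0.05.

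The 6 libraries summed to between 4065785 and 4239702 scaled counts. The hepatocyte markers were present in all of them, with Alb, the albumin gene, at 1794, 1752 and 2192 at P7 and 2242, 2203 and 2103 at P14. Some P7 libraries stand apart. P7 replicate 3 carried 3.08 scaled counts per kb at genes that are silent in the other livers, P7 replicate 2 0.168, and the remaining 4, which helped to choose those genes, between 0.0113 and 0.0198. P7 replicate 1 held skeletal muscle transcripts, summing to 2767 over 16 muscle genes, against 85 and 631 in P7 replicates 2 and 3 and 50 to 105 at P14. Relative to the mean of all libraries, values rose with transcript length in the P7 libraries (rank correlations across genes of 0.241, 0.572 and 0.205) and not in the P14 libraries (-0.169, -0.135 and -0.00596). Ddx3y, a Y-linked gene, stood at 2, 786 and 45 at P7 and 697, 1 and 0 at P14, so each age had 1 library with a high value. Xist, an X-linked gene of females, stood at 1558, 66 and 1484 at P7 and 2, 1629 and 1870 at P14. P7 replicates 2 and 3 thus held counts of both genes. Where the count of members of a list that moved in its leading direction shifts by over 1.5 times without 1 of the 6 libraries, the count without that library is given as well. Fits with the length trend removed and with each library left out are described in the closing section. Beyond these fits, the part of these differences in any result was not tested.

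Between P7 and P14, 4765 of 14104 genes (33.8%) passed the test: 2032 rose (14.4%) and 2733 fell (19.4%). The large changes were mostly falls. At least 2-fold changes that passed numbered 1231 downward (8.73%) and 351 upward (2.49%). The groups did not overlap in 6881 genes (48.8%). Each count of list members below is to be read beside these shares of all genes. The median log2 difference over all genes was -0.000877. Rises made up 42.6% of the calls, and 54.1% of them after quantile normalization, which forces every library to the same distribution. With P7 replicate 1 as the only P7 library, 1508 genes passed, and 3203 did so with P7 replicate 2 as the only one.

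**Figure D1:**
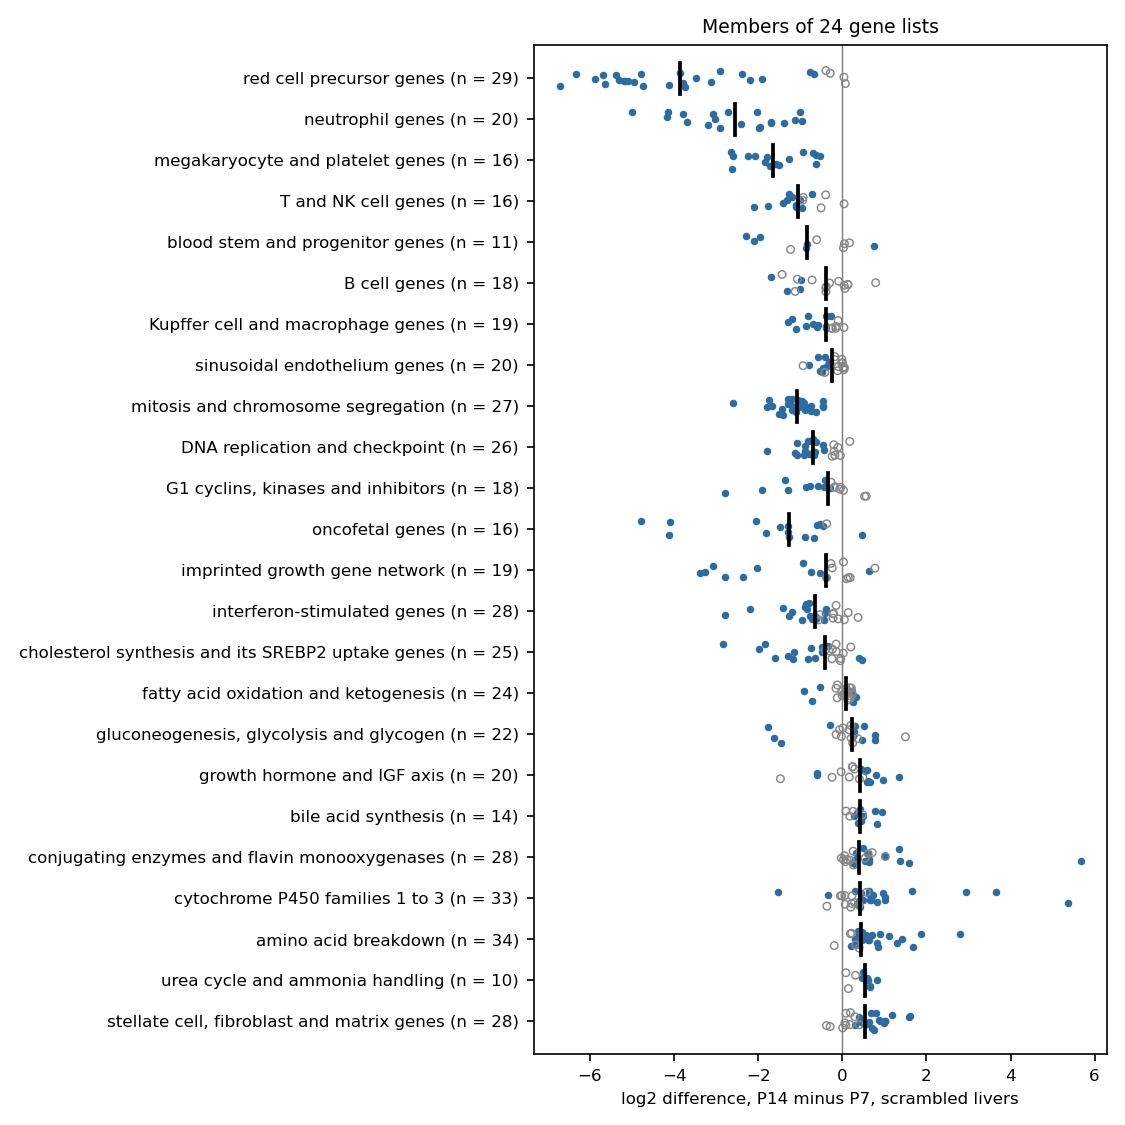
Log2 difference from P7 to P14 in scrambled livers (horizontal axis) for every tested member of 24 gene lists (vertical axis). Filled points passed the test, open points did not, and the bar marks the median of the list. The medians of the red cell, neutrophil, platelet, fetal and cell division lists lie left of 0, and those of amino acid breakdown, the urea cycle, drug metabolism and stellate cells lie right of it.

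The red cell program fell, and its list had the lowest median of the 49 gene lists described. Of 29 genes of red cell precursors, 25 fell and 0 rose, with a median log2 difference of -3.87. Kel, which carries the Kell blood group and lies at chr6:41686330-41704339, had 325, 444 and 511 scaled counts in the P7 libraries and 2, 2 and 6 in the P14 libraries. All P14 values lie far below all P7 values, at a log2 difference of -6.72 (SE 0.28) with an adjusted p of 3.45e-11 in limma. Hemgn, a nuclear protein of red cell precursors, went from 478, 668 and 799 to 2, 19 and 7. Gfi1b, a transcriptional repressor needed by red cell and platelet precursors, went from 150, 168 and 243 to 1, 4 and 2. Their log2 differences were -6.34 and -5.89. Kel, Hemgn and Gfi1b were chosen among genes without overlap between the ages. The membrane skeleton fell with them: Epb42 (protein 4.2) from 407, 714 and 781 to 2, 19 and 26 and the ankyrin gene Ank1 from 693, 1248 and 1326 to 10, 22 and 36.

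The upstream regulator Gata1 and the anion exchanger Slc4a1, the most abundant protein of the red cell membrane, were looked at after their values had been seen. Gata1 stood at 178, 239 and 293 at P7 and 3, 13 and 11 at P14 (log2 -4.73). Slc4a1 stood at 1772, 2235 and 2688 and 57, 151 and 232 (log2 -4.11). Within each gene P7 replicate 1 was the lowest of the P7 libraries and P14 replicate 1 the lowest of the P14 libraries. Summed over the list, P7 held 13439, 18405 and 21740 scaled counts and P14 2277, 2802 and 3038. Sums of a list are given without a test, since 3 libraries against 3 cannot give an exact permutation p below 0.1. The globin genes did not pass: Hbb-bs had 222, 221 and 275 at P7 and 178, 204 and 203 at P14, a log2 difference of -0.29 with an adjusted p of 0.118 in limma. Hbb-bt had 183, 186 and 229 and 135, 158 and 161 (log2 -0.39, adjusted p 0.0554 in limma). Its adjusted p in limma was 0.000410 when the trend with transcript length was removed. It was 0.0461 with only the 6 libraries compared and 0.0488 with the replicate number as a block. In every other alternative it stayed over the threshold. The globin values in the table correspond to 0.392 and 0.295 scaled counts per base of transcript. Many abundant liver transcripts sit near such a level (Alb 1.03, Fga 0.900, Afp 0.869). These are low levels for transcripts known as among the most abundant of liver and blood, and how duplicate reads were handled is not stated in the labels. Levels and differences of such genes, among them Alb, Igf2, H19 and the globins, carry that limit, and whether it bears on the differences was not tested.

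**Figure D2:**
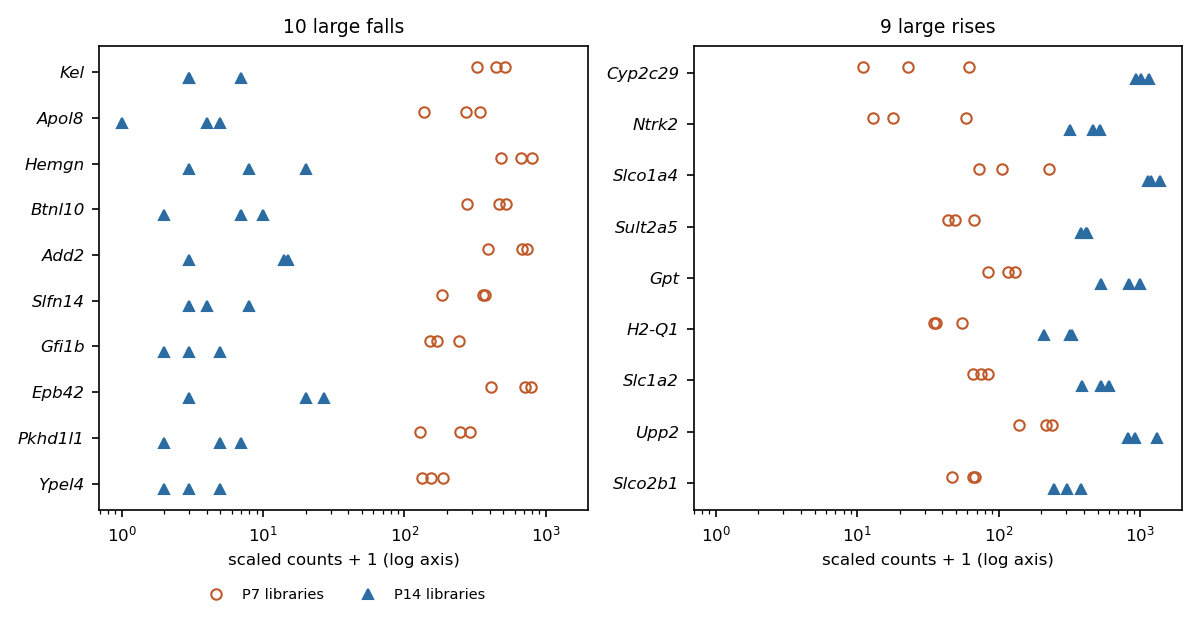
Scaled counts plus 1 (log axis) of the 10 genes that fell most and 9 of the 10 that rose most among those with a mean of 100 or more, in the 3 P7 (circles) and 3 P14 (triangles) scrambled libraries. The ages do not overlap in any of these genes, a condition of the choice.

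Since red cell genes are known to be driven by GATA1, the 250 bases before their start sites were searched for the letters AGATAA and TGATAA on both strands. Promoters came from RefSeq on GRCm38.p6, and 20 of the 29 tested red cell genes had one. Of these, 16 (80%) held the letters, against 12% of 10682 tested genes and 3 of 18 neutrophil genes (16.7%). The motif CCACACCC, a core of the site known for KLF1, was found in 1 of the same 20, against 4.09% of all. A match in letters is no evidence of binding. These 30-base windows are shown for 6 of the genes whose values are given here or that fell by a similar amount, with the motif in capitals (TTATCA and TTATCT are the same motif on the other strand) and each written 5′ to 3′ on the strand of its gene:
Kel, chr6:41704364-41704393 (- strand): cctgagaaactaAGATAAaagaggaggtga
Hemgn, chr4:46404184-46404213 (- strand): ctcacacctgtgcagtgTGATAAagaaagt
Gfi1b, chr2:28622085-28622114 (- strand): tctgtgaagtttTGATAAgcaaatgtggct
Epb42, chr2:121037086-121037115 (- strand): gtctctatttccTTATCTcgttcaaacaga
Ermap, chr4:119190045-119190074 (- strand): tgaacgctcgctTTATCAggggtgggcaga
Rhag, chr17:40811106-40811135 (+ strand): agtcctctgctcTTATCAacactatacagc
The window of Kel lies 56 bases before its start site and that of Rhag, which encodes the Rh-associated glycoprotein (log2 -5.17, added for its window), 31 bases before. Ermap, an erythroblast membrane protein, fell by a log2 difference of -5.39.

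The remaining large falls included further genes of blood precursors. Add2, the beta-adducin of the red cell skeleton, went from 387, 671 and 730 to 2, 13 and 14, and Slfn14, a member of the schlafen family, from 184, 358 and 369 to 2, 7 and 3. Apol8 had 137, 273 and 342 and 0, 4 and 3, Btnl10 277, 523 and 461 and 1, 9 and 6, Pkhd1l1 127, 289 and 244 and 1, 4 and 6, and Ypel4 132, 152 and 185 and 2, 1 and 4. The log2 differences of these 6 genes ran from -6.44 to -5.65.

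Granulocyte precursors fell as a whole list: 20 of 20 neutrophil genes, with a median log2 difference of -2.56. Mpo, the myeloperoxidase of the first granules to form, had 500, 572 and 776 scaled counts at P7 and 14, 39 and 64 at P14. The difference was -4.16 (SE 0.36) on the log2 scale, with an adjusted p of 1.11e-07 in limma, and the lowest P7 value was well above the highest P14 value. Elane, neutrophil elastase, went from 167, 177 and 238 to 9, 13 and 18. Ctsg, cathepsin G, went from 110, 97 and 150 to 0, 9 and 4. Ms4a3, a marker of granulocyte and monocyte progenitors, went from 67, 76 and 108 to 2, 6 and 4. The list summed to 4672, 4893 and 5829 at P7 and 958, 1104 and 1609 at P14, and P14 replicate 3 was the highest of the P14 libraries in the sum.

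All 16 platelet and megakaryocyte genes fell too (median -1.64). Gp1ba, a subunit of the platelet receptor for von Willebrand factor, had 91, 92 and 113 and 15, 21 and 11 (log2 -2.62). The platelet count was 9 with P7 replicate 1 as the only P7 library. Of 11 genes of blood stem and progenitor cells 5 fell, among them the transcription factors Runx1 (95, 109 and 162 to 19, 19 and 35) and Myb (86, 130 and 173 to 16, 27 and 51) and the receptor Flt3 (46, 80 and 90 to 14, 14 and 25). Cd34, which endothelium also carries, rose from 189, 130 and 150 to 242, 223 and 328. With P7 replicate 1 alone at P7, 3 fell and Cd34 did not pass.

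Fewer of the B cell genes passed. Of 18, 4 fell and the median was -0.39. This count is near the share of all tested genes that fell (19.4%). Vpreb1, part of the surrogate light chain of B cell precursors, had 22, 30 and 48 at P7 and 10, 14 and 13 at P14 (log2 -1.31). The immunoglobulin gene Ighm did not pass, at 477, 411 and 449 and 312, 293 and 423. P14 replicate 3 was the highest P14 library in the summed list (920, 825 and 1410, against 1348, 1245 and 1458 at P7). The count was 8 without P14 replicate 3 and 0 without P14 replicate 1, 1 without P14 replicate 2, 1 without P7 replicate 2 and 2 without P7 replicate 3, so it rests on single libraries.

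Of 16 genes of T and natural killer cells, 11 fell, with a median of -1.05. Gzma, a granzyme of killer cells, went from 210, 270 and 203 to 91, 74 and 87 (log2 -1.42), and Prf1, perforin, from 20, 31 and 24 to 5, 4 and 6 (log2 -2.11). P7 replicate 2 was the highest in the summed list (1129, 1672 and 1043 at P7, 676, 483 and 699 at P14), and without it 7 genes fell. The count was also 7 without P14 replicate 2.

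**Figure D3:**
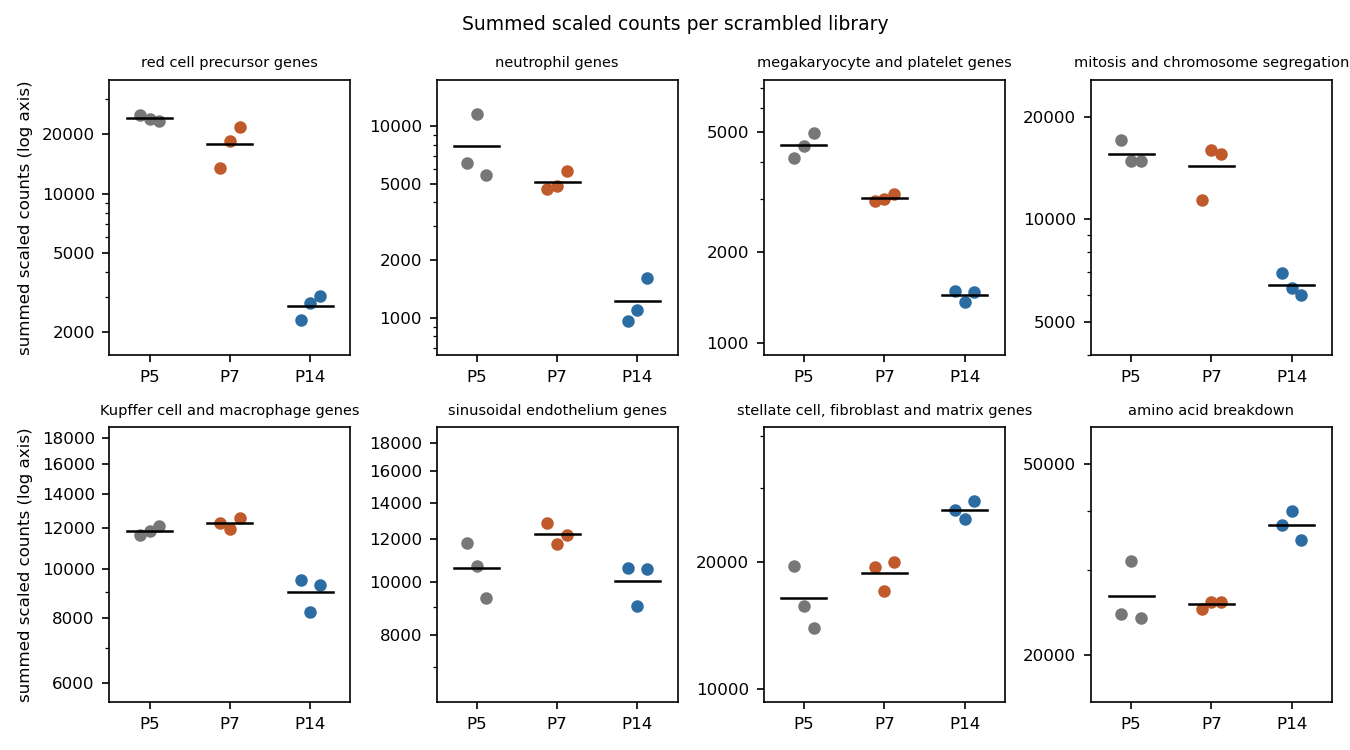
Summed scaled counts (log axis) of 8 gene lists in the 3 P5, 3 P7 and 3 P14 scrambled libraries, 1 point per library with the group mean as a line. The red cell sum lies between 13439 and 21740 at P7 and between 2277 and 3038 at P14, while the stellate cell and amino acid breakdown sums are higher at P14 than at P7 in every library.

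Among markers of resident cells of the liver sinusoids, those that passed were lower at P14. Of 19 genes of Kupffer cells, the macrophages of the liver, 13 fell and 0 rose, with a median of -0.40. Adgre1, the macrophage protein F4/80, had 811, 986 and 814 at P7 and 421, 327 and 396 at P14, with no overlap and a log2 difference of -1.19 (SE 0.18) (adjusted p 6.36e-05 in limma). Csf1r, the receptor that macrophages need to survive, went from 1397, 1385 and 1387 to 856, 670 and 858, and Cd163, which takes up haemoglobin bound to haptoglobin, from 265, 225 and 174 to 82, 77 and 111. Timd4, a receptor for dying cells, went from 439, 450 and 426 to 272, 201 and 252. Other abundant markers did not pass: Clec4f (930, 878 and 964 and 850, 808 and 837, log2 -0.15) and the iron exporter Slc40a1 (1472, 1445 and 1511 and 1420, 1357 and 1354, log2 -0.10). The count was 8 with P7 replicate 1 alone at P7 and the same with P7 replicate 2 alone.

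Among 20 endothelial genes, 8 fell (median -0.25). The hyaluronan receptor Lyve1 went from 587, 517 and 579 to 278, 386 and 310 (log2 -0.80), and the scavenger receptor Stab1 from 1003, 926 and 911 to 677, 601 and 702 (log2 -0.52). With P7 replicate 2 or replicate 1 as the only P7 library, 4 and 3 endothelial genes fell.

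Stellate and other matrix-producing cells went the other way. Of 28 genes, 18 rose and 0 fell, with a median of 0.53. Col1a1, a chain of type I collagen, had 1052, 844 and 1041 at P7 and 2083, 1797 and 2072 at P14, a log2 difference of 1.02 (SE 0.22) (adjusted p 0.00155 in limma). The ages do not overlap. Loxl1, which cross-links elastin, went from 110, 86 and 108 to 324, 229 and 370, and Eln, elastin itself, from 894, 887 and 1110 to 2142, 1421 and 2346. Col6a2, a chain of type VI collagen, went from 382, 234 and 312 to 681, 714 and 686, and Rgs5, a marker of pericytes, from 484, 455 and 219 to 988, 1128 and 1242. Reln, an abundant stellate cell gene, did not pass (1669, 1888 and 1806 and 1546, 1456 and 1381, log2 -0.29). P7 replicate 2 was the lowest P7 library for the rising genes named here other than Rgs5, whose lowest was P7 replicate 3. Without P7 replicate 2, 11 genes of the list rose, and 1 did with P7 replicate 1 alone at P7. Of 9 bile duct genes 3 rose, with the keratin Krt19 at 51, 39 and 31 and 118, 65 and 94 (log2 1.16). That count was 1 without P14 replicate 1, 5 without P14 replicate 2 and 1 without P14 replicate 3.

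Cell division fell. All 27 genes of mitosis fell, with a median of -1.07, as did 19 of 26 genes of DNA replication (median -0.69) and 10 of 18 cyclin, E2F and inhibitor genes of G1 (median -0.35). Mki67, which coats chromosomes in dividing cells, had 1642, 2896 and 2664 at P7 and 733, 643 and 631 at P14. P7 replicate 1 was the lowest of the P7 libraries, and all P14 values lay below it, at a log2 difference of -1.80 (SE 0.17) and an adjusted p of 3.16e-07 in limma. Mybl2, a transcription factor of late cell cycle genes, went from 166, 200 and 260 to 37, 27 and 36 (log2 -2.60). Cenpe, a kinesin at kinetochores, went from 326, 567 and 520 to 145, 147 and 120 (log2 -1.74).

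Among replication genes the loading factor Cdc6 went from 183, 317 and 350 to 57, 108 and 79 (log2 -1.78) and the helicase subunit Mcm2 from 514, 748 and 792 to 265, 356 and 336 (log2 -1.09). E2f2 had 684, 959 and 1129 and 107, 130 and 160 (log2 -2.78), and E2f8, a repressor of the family, 302, 477 and 408 and 125, 106 and 82 (log2 -1.91). Cyclin D1, which starts the cycle in hepatocytes, did not pass: Ccnd1 had 1063, 994 and 954 and 901, 821 and 920 (log2 -0.19, adjusted p 0.131 in limma). Red cell precursors divide as well, and their share in these falls was not tested. With P7 replicate 1 as the only P7 library, 18 mitosis, 5 replication and 3 G1 genes fell.

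Late cell cycle genes are known to carry a short element, the CHR, in their promoters, with the letters TTTGAA or TTTAAA, and many have a CCAAT box. Both strands of the 250 bases before the start site were searched. The CHR letters were in 11 of 22 mitosis promoters (50%), 5 of 20 replication promoters (25%) and 21.4% of all 10682 searched. The letters CCAAT were in 77.3% of the mitosis promoters and 40.5% of all. The windows below, with the CHR letters in capitals, show genes with a deep fall (Mki67) and with shallower ones (Plk1, a mitotic kinase, and Ccnb1, cyclin B1, added for their windows):
Mki67, chr7:135716478-135716507 (- strand): ttagcgccagaaTTTGAAccgccgttttgg
Plk1, chr7:122159394-122159423 (+ strand): gcgggtttgtatTTTAAAtccccgcggcca
Ccnb1, chr13:100786511-100786540 (- strand): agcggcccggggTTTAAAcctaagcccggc
The log2 difference was -1.19 for Plk1 and -0.95 for Ccnb1.

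Fetal liver genes were nearly all lower at P14. Of 16 oncofetal genes, which are on in the fetal liver, off in the adult and on again in liver tumours, 14 fell (median -1.28) and 1, Prom1, rose. Sall4, a transcription factor of fetal hepatoblasts, had 68, 77 and 61 at P7 and 1, 1 and 3 at P14, a log2 difference of -4.78 (SE 0.36) (adjusted p 2.04e-08 in limma). Lin28b, which blocks the maturation of let-7 microRNAs, went from 11, 24 and 34 to 0, 0 and 1, and Igf2bp1, an RNA-binding protein of the fetal liver, from 37, 27 and 55 to 2, 0 and 3. Igdcc4 went from 409, 559 and 424 to 72, 121 and 152 and Cd24a from 696, 781 and 996 to 268, 257 and 349. No member named so far overlapped between the ages. Afp, alpha-fetoprotein, did not pass. It had 1768, 1725 and 2191 at P7 and 1469, 1374 and 1524 at P14, which do not overlap, with a log2 difference of -0.37 (SE 0.16), an adjusted p of 0.0744 in limma and 0.869 scaled counts per base. Prom1 had 507, 635 and 413 and 651, 798 and 679, and its call was lost without P7 replicate 1, P7 replicate 3 or P14 replicate 2. Zhx2, a repressor of Afp, rose (log2 0.62) but lost its call without any one of 5 of the 6 libraries, all but P7 replicate 2.

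Imprinted genes of the network that promotes growth before weaning were divided. Of 19, 10 fell and 1 rose (median -0.39). The deepest falls were neighbours of 1 imprinted cluster on chromosome 12. Dlk1, a surface protein of hepatoblasts at chr12:109452849-109463336, had 356, 395 and 345 at P7 and 33, 32 and 71 at P14, a log2 difference of -3.08 (SE 0.23) (adjusted p 1.83e-08 in limma). The noncoding transcripts of the maternal copy fell as well: Meg3 from 434, 600 and 354 to 39, 34 and 57, Rian from 472, 670 and 700 to 85, 89 and 85 and Mirg from 37, 56 and 49 to 3, 4 and 5. Outside the cluster, Zim1 went from 230, 255 and 199 to 49, 26 and 62 and Peg10, derived from a retrotransposon, from 434, 581 and 473 to 98, 122 and 145. Igf2, the fetal growth factor, and H19, its imprinted neighbour, did not pass. Igf2 had 3057, 3097 and 3619 and 3356, 3322 and 3244 (log2 0.03, 0.694 scaled counts per base) and H19 1696, 1617 and 2053 and 2113, 2032 and 1934 (log2 0.19, 0.850 per base).

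Genes of the growth hormone axis rose more often than they fell. Of 20 genes of growth hormone and IGF signalling, 9 rose and 2 fell. Igf1, the growth factor that growth hormone draws from the liver, had 1895, 1913 and 1761 at P7 and 3411, 3341 and 2973 at P14, a 1.75-fold higher mean with a log2 difference of 0.80 (SE 0.12) (adjusted p 6.11e-05 in limma). The receptor genes Ghr (1197, 1237 and 1109 to 1806, 1908 and 1625) and Prlr, the prolactin receptor (1082, 1118 and 833 to 1942, 2114 and 1836), rose with no overlap. Igf1r, the receptor for IGF1 itself, fell from 194, 185 and 225 to 118, 129 and 152. Bcl6, a repressor in the male pattern of growth hormone response, rose from 47, 45 and 49 to 76, 205 and 111 and was highest in P14 replicate 2. With P7 replicate 2 or replicate 1 as the only P7 library, 5 and 5 genes of the list rose, and Igf1r did not pass.

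Most enzymes of amino acid breakdown rose. Of 34, 29 rose and 0 fell, with a median of 0.45. The median of the 10 hepatocyte marker genes was 0.23, and the medians of this and the following enzyme lists are to be read beside it. Gpt, the alanine aminotransferase measured in blood as a sign of liver damage, had 116, 130 and 83 at P7 and 838, 992 and 529 at P14, a 7.17-fold higher mean with a log2 difference of 2.81 (SE 0.22) (adjusted p 3.53e-08 in limma). The lowest P14 library was over 4 times the highest P7 library. Sds, serine dehydratase, went from 217, 199 and 142 to 584, 847 and 598. Tdo2, which opens the breakdown of tryptophan, went from 579, 572 and 320 to 1433, 1697 and 1450, and Hal, which does so for histidine, from 650, 820 and 461 to 1702, 1886 and 1454. In these 3 genes P7 replicate 3 was the lowest P7 library. Most of the other enzymes rose by less than 2-fold, and 6 of the 29 rose by more. The count of rises was 17 with P7 replicate 1 as the only P7 library.

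The urea cycle, which disposes of the nitrogen those enzymes release, rose in 7 of 10 genes (median 0.55). Cps1, its first enzyme, had 2095, 2969 and 2219 and 3738, 4278 and 3433 (log2 0.66). Ass1 (394, 438 and 432 to 665, 688 and 590), Asl (814, 802 and 801 to 1239, 1379 and 1192) and Arg1 (729, 708 and 704 to 1061, 1166 and 1004), which follow it, rose without overlap. Gls2, the liver glutaminase that feeds ammonia to the cycle, went from 727, 800 and 608 to 1219, 1407 and 1123 (log2 0.81). Glul, glutamine synthetase of the cells around the central vein, did not pass (1314, 1181 and 1443 and 1631, 1331 and 1389). With P7 replicate 2 as the only P7 library, 4 of the 7 passed, and Cps1 and Gls2 did not. Along the lobule, 9 of 18 periportal genes and 5 of 20 pericentral genes rose. The periportal list shares Sds, Hal, Gpt2, Cps1, Ass1, Arg1 and Gls2 with the amino acid breakdown and urea cycle lists. The pericentral list shares Glul and Oat with them. The pericentral rises were led by Slc1a2, a glutamate transporter, at 74, 83 and 65 and 605, 526 and 385 (log2 2.74), and Notum, a secreted Wnt inhibitor, at 356, 220 and 237 and 520, 463 and 489 (log2 0.89).

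Among genes averaging at least 100 scaled counts, the steepest rises included enzymes and carriers of foreign compounds. Cyp2c29, a cytochrome P450 at chr19:39269405-39330699, had 61, 22 and 10 at P7 and 1013, 1156 and 928 at P14 (log2 5.36 (SE 0.45), adjusted p 6.93e-08 in limma). P7 replicate 1 was the highest of its age and still far below every P14 library. Cyp2c55 went from 25, 36 and 13 to 257, 376 and 270, and Cyp2b10, a standard target of the receptor CAR, from 43, 20 and 7 to 128, 220 and 114. The call of Cyp2b10 was lost with P7 replicate 1 as the only P7 library.

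Over the lists, 20 of 33 P450 genes of families 1 to 3 rose and 2 fell (median 0.42), and 16 of 28 conjugating enzymes and flavin monooxygenases rose (median 0.40). Members of these families are close in sequence, and reads shared between them may be split by the authors' counting. Cyp3a41a fell from 35, 38 and 31 to 12, 11 and 11. Ugt2a3, a glucuronosyltransferase, rose from 312, 182 and 137 to 578, 698 and 538, and Nat8f2, an N-acetyltransferase, from 264, 375 and 306 to 697, 1028 and 688. None of 4 xenobiotic receptor genes passed in limma (unadjusted p under 0.05 in 2 of them), with Nr1i3, which encodes CAR, at 715, 548 and 546 and 800, 626 and 772. Without P7 replicate 1, 2 of these receptor genes rose, and 1 did without P14 replicate 2. With P7 replicate 1 as the only P7 library, 8 P450 genes and 4 conjugating enzymes rose, and the latter count was 9 without P14 replicate 1 or P14 replicate 2.

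Of 16 bile and organic anion transporters, 7 rose and 3 fell. Slco1a4, an uptake carrier, went from 226, 104 and 72 to 1198, 1374 and 1136 (log2 3.36), Slc22a7, another, from 201, 190 and 203 to 937, 844 and 740 (log2 2.07), and the sterol exporter Abcg5 from 622, 599 and 519 to 959, 1178 and 935 (log2 0.82). Among the other large rises outside the lists were Ntrk2, the receptor TrkB (17, 12 and 58 to 465, 517 and 318), Sult2a5, a sulfotransferase (48, 66 and 43 to 421, 416 and 380), H2-Q1, a class I histocompatibility gene (35, 54 and 34 to 318, 327 and 207), Upp2, a uridine phosphorylase (238, 216 and 138 to 913, 1310 and 822), and the carrier Slco2b1 (46, 67 and 65 to 303, 380 and 246). Their log2 differences ran from 2.36 to 4.15.

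Bile acid synthesis rose in 10 of 14 genes (median 0.42), but the gene of its rate-limiting step did not pass, which does not show that it stayed level. Cyp7a1 had 504, 683 and 590 at P7 and 613, 1068 and 528 at P14, which overlap, with a log2 difference of 0.26 (SE 0.25) (adjusted p 0.449 in limma). Cyp27a1, which starts the alternative route, went from 269, 306 and 243 to 558, 560 and 461 (log2 0.95 (SE 0.10), adjusted p 1.34e-06 in limma), a 1.93-fold higher mean. Cyp2c70, which makes the muricholic acids of rodents, went from 744, 719 and 691 to 1286, 1332 and 1073. Nr0b2, the repressor SHP that bile acids induce, rose from 241, 197 and 183 to 462, 392 and 360 (log2 0.97). Only 5 genes of synthesis rose, and Nr0b2 did not pass, with P7 replicate 1 as the only P7 library.

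Cholesterol synthesis fell at several steps. Of 25 genes of the pathway and of cholesterol uptake under SREBP2, 13 fell and 2 rose (median -0.41). Sqle, squalene epoxidase at chr15:59315081-59331192, had 487, 515 and 604 at P7 and 67, 81 and 75 at P14, a mean 7.20 times lower and a log2 difference of -2.83 (SE 0.14) (adjusted p 1.92e-10 in limma). Idi1, which isomerises the isoprene unit, went from 42, 59 and 65 to 12, 15 and 12, and Mvd, which acts before it, from 160, 141 and 187 to 50, 51 and 57. Lss, which closes the sterol rings, went from 359, 467 and 545 to 166, 251 and 194. The steps were not uniform: Ebp (444, 414 and 457 to 643, 641 and 532) and Sc5d (1228, 1311 and 1360 to 1595, 1916 and 1616), which act late, rose.

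The letters CCAAT, the site of NF-Y, which acts with SREBP2, were in 16 of 17 promoters of the cholesterol list (94.1%), against 40.5% of all searched. A sterol element with the letters TCACNCCAC was in 1 of the 17, that of Hmgcs1, and in 1.25% of all. Other forms of the element were not searched. Hmgcs1, which makes the precursor of mevalonate and was added for its window, fell less than Sqle, from 1087, 1211 and 1364 to 920, 868 and 826 (log2 -0.48). Its window is printed with the element in capitals:
Hmgcs1, chr13:119690204-119690233 (+ strand): cgtcaccgtcTCACCCCACttcccaggtcc

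Fatty acid genes were divided. In fatty acid synthesis, 6 of 17 genes rose (3 without P14 replicate 1) and 2 fell. Scd1, the stearoyl-CoA desaturase, had 312, 344 and 294 and 608, 1528 and 562 (log2 1.35), with P14 replicate 2 far above the others, and Srebf1, the regulator of the pathway, 1205, 1216 and 958 and 1805, 2116 and 1640 (log2 0.72). Acacb, the acetyl-CoA carboxylase of mitochondria, fell from 92, 105 and 140 to 29, 44 and 52, and Elovl6, which lengthens palmitate, from 337, 391 and 445 to 105, 189 and 205. Of 24 genes of fatty acid oxidation and ketone production 3 rose and 3 fell, counts that are 25% of the list where 33.8% of all genes passed. No rise was called without P7 replicate 2 or without P14 replicate 1 (both 0), and 1 was called without P7 replicate 1, P14 replicate 2 or P14 replicate 3, so the rises of this list rest on single libraries. Of 22 genes of lipid transport 4 rose and 2 fell, again a share below the 33.8% of all genes. Lpl, lipoprotein lipase, rose from 1622, 1600 and 1481 to 2357, 2435 and 2160. Without P14 replicate 2, 2 of the lipid transport genes rose.

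Of 22 genes of glucose metabolism, 8 rose and 4 fell. The falls included the hexokinases of other tissues and blood cells, Hk1 (389, 525 and 598 to 150, 117 and 176), Hk2 (146, 175 and 139 to 56, 45 and 66) and Hk3 (208, 392 and 307 to 85, 86 and 116). Pck1, the entry to glucose production, rose from 1481, 1427 and 1571 to 2004, 2197 and 2171 (log2 0.51), and Khk, which starts fructose use, from 596, 514 and 486 to 917, 944 and 855 (log2 0.77). The count of rises was 4 without P7 replicate 1, without P7 replicate 3 or without P14 replicate 2, and 6 or 7 without any other of the 6 libraries.

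Few genes of iron handling passed, with the iron hormone as the main exception. Hamp, which encodes hepcidin, the hormone that blocks iron uptake, had 247, 153 and 163 at P7 and 12, 91 and 31 at P14, with no overlap, a log2 difference of -2.45 (SE 0.57) and an adjusted p of 0.00282 in limma. P14 replicate 2 was the highest of its age. The difference was -1.76 without P14 replicate 1 and -3.18 without P14 replicate 2, and the call was lost with P7 replicate 2 as the only P7 library. Of the 17 genes of the iron list only Hamp and Id1, a target of BMP signalling, passed. Id1 lost its call without P7 replicate 1, P7 replicate 3, P14 replicate 1 or P14 replicate 2. Among 11 heme genes 5 fell, including the synthesis enzyme Ppox (332, 361 and 376 to 180, 178 and 193) and Hmox1, which breaks heme down (715, 606 and 659 to 398, 389 and 493). Alas1, the liver's first enzyme of heme synthesis, did not pass (707, 640 and 622 and 735, 979 and 674).

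Interferon-stimulated genes were lower at P14 in 18 of 28 cases (median -0.64) and higher in 0. Rsad2, the antiviral protein viperin, had 548, 936 and 1037 at P7 and 128, 201 and 212 at P14, a log2 difference of -2.20 (SE 0.23) (adjusted p 1.47e-06 in limma). Oas3, a sensor enzyme for double-stranded RNA, had 101, 304 and 319 and 35, 25 and 31 (log2 -2.79), and Gbp2, a guanylate-binding protein, 275, 559 and 421 and 203, 149 and 177 (log2 -1.19). P7 replicate 1 was the lowest P7 library in these 3 genes. The count was 9 without P7 replicate 2, 12 without P14 replicate 3 and 3 with P7 replicate 1 as the only P7 library. Antigen presentation gave 7 falls in 17 genes, led by H2-DMa, which loads peptides on class II molecules (129, 297 and 152 to 103, 67 and 99), and 2 falls without P7 replicate 2 and 3 without P14 replicate 2. The class I gene H2-K1 did not pass (951, 1041 and 1069 and 1137, 1123 and 1094).

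Several smaller groups were divided. In the vitamin A list 9 of 17 genes rose and 4 fell. Rdh16, a retinol dehydrogenase, went from 176, 167 and 169 to 642, 657 and 693 (log2 1.95), while Rbp2, a retinol-binding protein, fell from 104, 78 and 88 to 31, 18 and 26 (log2 -1.83). Dio1, the deiodinase that activates thyroid hormone, rose from 322, 294 and 345 to 769, 771 and 686 (log2 1.21), and Klf9, a target of thyroid and glucocorticoid hormone, from 144, 179 and 102 to 271, 304 and 289 (log2 1.05, not passing without P7 replicate 3). Of 20 hepatocyte transcription factors 5 rose and 1 fell, where 33.8% of all genes passed, so the list is near the general share. Klf15, a regulator of amino acid breakdown, rose from 409, 433 and 369 to 681, 853 and 755 (log2 0.91). Of 17 clock genes 6 rose and 2 fell, with 3 rises without P7 replicate 1 and 3 without P14 replicate 3. The hour of collection is not in the labels.

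Secreted plasma proteins came next. Of 37 coagulation and complement genes 6 rose and 0 fell, where 14.4% of all genes rose and 33.8% passed, so the rises are near the general share. Among them was C9, the last component of the complement pore, from 282, 421 and 272 to 643, 858 and 577 (log2 1.10). Of 15 acute phase genes 5 rose. The acute phase count was 2 without P7 replicate 1, 2 without P7 replicate 3 and 1 without P14 replicate 2. Fga, a fibrinogen chain, did not pass (2061, 1984 and 2438 and 2591, 2466 and 2319, 0.900 scaled counts per base). In the hepatocyte marker list 1 of 10 genes passed, Cps1, and the median was 0.23. The list summed to 14830, 17967 and 16188 at P7 and 18635, 19221 and 17155 at P14. In the list of NRF2 targets and the pentose phosphate path 4 of 15 fell and 1 rose, with G6pdx, the entry enzyme of that path, from 318, 380 and 344 to 170, 135 and 159 (log2 -1.16). That list had 2 falls without P7 replicate 2 and 2 without P7 replicate 3. The list of genes whose adult level depends on sex held 5 tested members, of which 1, Mup3, rose (2, 17 and 4 to 22, 71 and 35) and 2 fell.

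Skeletal muscle genes fell in 7 of 12 tested cases, in 4 without P7 replicate 1 and in 12 without P7 replicate 2. Myh8, the perinatal myosin heavy chain, had 344, 1 and 15 at P7 and 0, 0 and 0 at P14, so its values came almost wholly from P7 replicate 1. Of 3 tested pancreas genes 1 rose (2 without P7 replicate 1), and of 4 genes of gut and fat none passed in limma, with 0 at an unadjusted p under 0.05.

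The P5 livers of the scrambled group give the level from which these genes came. Kel had 699, 637 and 684 scaled counts at P5, Mki67 2723, 2233 and 2120, Dlk1 477, 380 and 468 and Sqle 650, 516 and 581. Among rising genes, Gpt had 93, 147 and 116, Cyp2c29 11, 25 and 14, Igf1 1591, 2202 and 1447 and Tdo2 303, 784 and 210. Kel was higher in every P5 library than in every P7 library. The other 7 genes overlapped between P5 and P7, and their P5 values lay on the same side of the P14 values as those at P7. No test was run on P5 here.

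**Figure D4:**
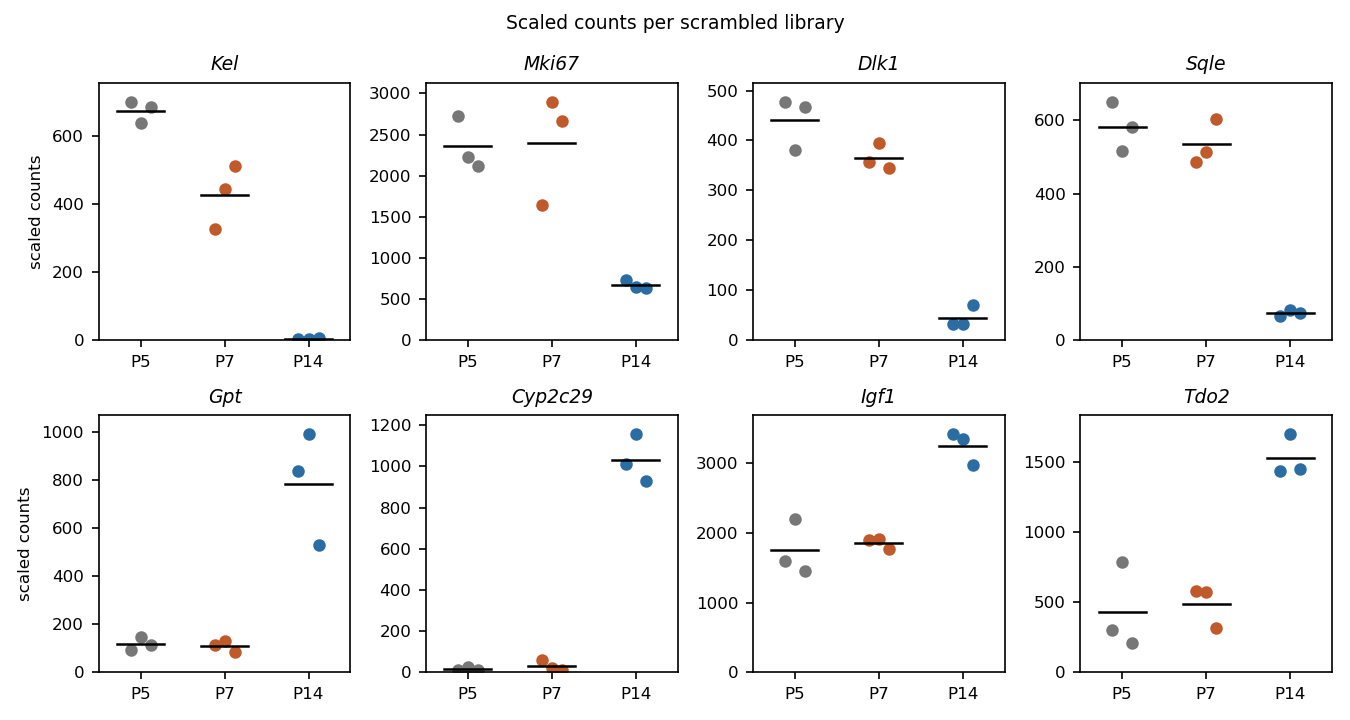
Scaled counts (vertical axis, own scale in each panel, starting at 0) of 8 genes in the scrambled livers at P5, P7 and P14 (horizontal axis), 1 point per library with the mean as a line. Kel, Mki67, Dlk1 and Sqle are lower in all P14 libraries than in all P7 libraries, and Gpt, Cyp2c29, Igf1 and Tdo2 are higher.

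The same ages can be compared in 6 other livers, those of pups given the miR-497a-5p mimic, with no library in common. The trend with transcript length went the same way there. Its rank correlations were 0.624, 0.0763 and 0.613 at P7 and -0.310, -0.00794 and -0.254 at P14. The part of this trend in the shared signs below was not tested. There 4163 genes (29.5%) passed, 1750 higher and 2413 lower at P14. At least 2-fold changes that passed numbered 227 upward (1.61%) and 849 downward (6.02%). Of the 4765 genes called in scrambled livers, 4574 (96.0%) had the same sign in mimic livers. Both comparisons called 2762 genes in the same direction, 58.0% of the scrambled and 66.3% of the mimic calls, and 4 in opposite directions. Pearson's r between the log2 differences was 0.829 across genes, which are not independent replicates.

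**Figure D5:**
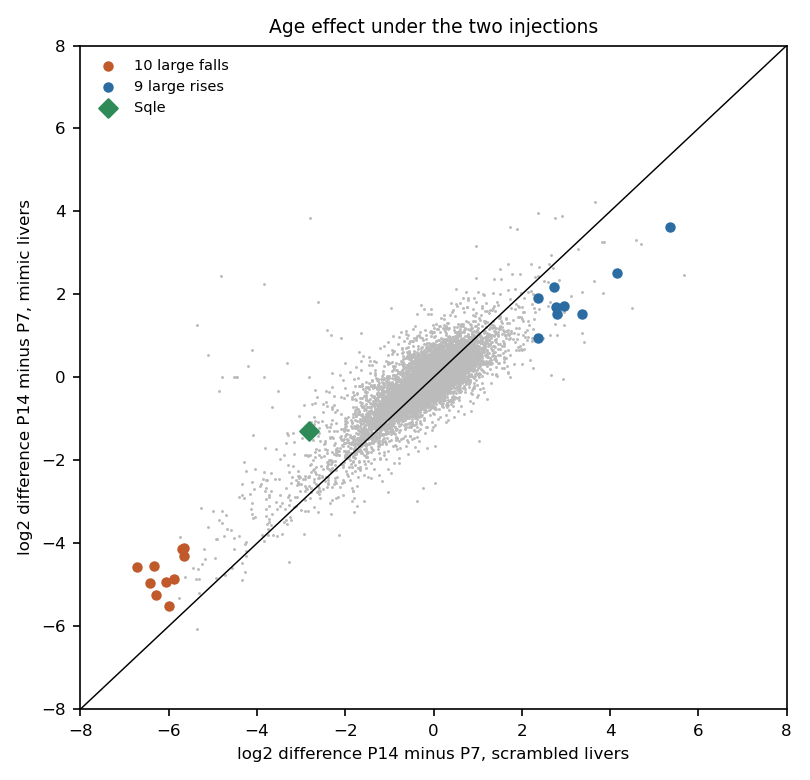
Log2 difference from P7 to P14 in scrambled livers (horizontal axis) and in mimic livers (vertical axis) for all 14104 tested genes, with the line of equal difference. Coloured points are Sqle, which lies above the line, and the 10 largest falls and 9 of the 10 largest rises. These falls and rises were chosen by their size in scrambled livers.

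The red cell list fell in 25 genes in mimic livers (median -3.35), the mitosis list in 22 (median -0.81) and the neutrophil list in 19 (median -1.98). Amino acid breakdown rose in 7 genes (median 0.21) and the stellate list in 3 (median 0.20). The periportal list rose in 1 gene (median 0.09) and the pericentral list in 7 (median 0.50), against 9 and 5 in scrambled livers. The urea cycle rose in 2 genes (median 0.21), and interferon-stimulated genes fell in 6 cases and rose in 1 (median -0.21). No member of these lists differed in its age effect between the oligonucleotides past the threshold, so the counts do not show that the lists differ. The difference between the age effects was tested gene by gene, and 1 gene passed (0.00709%), with 1114 genes at an unadjusted p under 0.05 (7.9%). That gene was Sqle. In mimic livers it had 578, 652 and 501 at P7 and 256, 187 and 266 at P14, a log2 difference of -1.29 against -2.83 in scrambled livers, and the age effects differed by -1.54 (adjusted p 0.00295 in limma). The next genes did not pass: Kel (adjusted p 0.175 in limma), with 334, 476 and 454 and 15, 23 and 13 in mimic livers, Rdh16 (0.184), Cyp2c54 (0.175) and Timp3 (0.184). Gpt and Cyp2c29, chosen for their rises in scrambled livers, had log2 differences of 1.52 and 3.63 in mimic livers. Their age effects did not differ past the threshold (adjusted p 0.327 and 0.503 in limma).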

How the data were processed

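RNA from whole livers was sequenced from poly(A) libraries that keep the strand, per the labels' protocols. The submitters' processing notes name DESeq2 1.26.0, featureCounts 1.6.5, Picard 2.21.7, STAR 2.6.1d and Trimmomatic 0.39 with the mm10 (GRCm38) build. The handling of duplicate reads is not stated. The deposited values are a score: gene counts scaled by the authors with 1 size factor for each library, then rounded to whole numbers, called scaled counts here. The table holds 31165 genes in 18 libraries. Totals of 3954405 to 4248257 scaled counts per library follow from that scaling, so the depth of reads is unknown and no count model was used. No mitochondrial gene (0) is listed.

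Values were tested as log2(scaled count + 1) with limma 3.58.1 in R 4.3.3, with data.table in version 1.17.8, with 6 group means over all 18 libraries, a mean-variance trend and 12 residual degrees of freedom. The 14104 genes with a mean of 10 or more were tested, and p-values were adjusted over all of them by Benjamini and Hochberg's method, with a threshold of 0.05. The 3 contrasts were P14 minus P7 in scrambled livers, the same in mimic livers, and the difference between them. Tables and figures were made with Python 3.11.15, numpy 2.4.6, pandas 2.3.3, scipy 1.17.1 and matplotlib 3.10.9.

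Groups follow the sample titles. The members and the 49 gene lists were chosen with earlier results of these data known, and 864 of 868 listed symbols were found. The genes named are the 10 largest rises and 10 largest falls with a mean of 100 or more and no overlap, in each list up to 6 called members each way and up to 3 abundant members that did not pass, a fixed set (Afp, Alb, H19, Igf2, Dlk1, Cyp7a1, Sqle and Hamp), and the 5 genes with the lowest p for the difference. A selection of these is printed, and some are not reported here. Gata1, Slc4a1, Rhag, Plk1, Ccnb1, Hmgcs1, Ddx3y and Xist joined them once their values were known. The alternatives tried were a pseudocount of 5, no filter on low values, a mean of 50 or more, TMM scaling, quantile normalization, no mean-variance trend, only the 6 libraries compared, a replicate block, removal of a trend with transcript length (lengths from GENCODE for 14096 genes), and each library left out. Between replicates of the P7 and P14 scrambled groups, the mean over genes of the squared difference divided by the sum ran from 2.54 to 5.01. The depth of reads is unknown, so how much of this is sampling noise cannot be told.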

Additional observations from a re-analysis of the deposited data

Results flagged for a closer look

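Sqle, which encodes squalene epoxidase of cholesterol synthesis, was picked out because its change with age differed between the 2 injected oligonucleotides by a test of the difference itself. The age effect in scrambled livers minus that in mimic livers was -1.54 on the log2 scale, with an adjusted p of 0.00295 in limma over 14104 genes. Sqle was lower at P14 than at P7 in all libraries of both groups, and its P14 values were lower in every scrambled library than in every mimic library. The adjusted p of this difference in limma was 0.0340 without the mean-variance trend and between 0.00191 and 0.0319 when scrambled libraries were left out.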

How the results depend on the processing

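For 147 of the genes named, 2488 log2 differences were recomputed under 17 alternatives. Of these, 2384 kept their direction and their side of the threshold, 84 lost the call, 16 gained one and 4 changed sign. Those that changed sign did not pass in either setting: Cyp7a1 at -0.0471 without P14 replicate 2, in a range of -0.0471 to 0.46 when 1 library was left out, and Igf2 at -0.15 after quantile normalization, -0.0177 without P7 replicate 1 and -0.00833 without P7 replicate 2, in a range of -0.0177 to 0.104. Of 815 list counts 665 stayed within 1.5 times, 124 were lower and 26 higher.

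The number of genes called in scrambled livers ran from 3398 to 4499 when 1 of these 6 libraries was left out, with 1287 to 1870 rises (1287 without P14 replicate 2) and 2111 to 2629 falls. With P7 replicate 1 as the only P7 library, a case in which it is assumed to vary like the other groups, 1508 genes passed (431 higher, 1077 lower) and 175 rose and 730 fell at least 2-fold. With P7 replicate 2 as the only P7 library, an alternative chosen after seeing the data, 1126 genes rose. The 2-fold counts were 183 higher and 763 lower with a mean of 50 or more, where fewer genes were tested, 703 higher after quantile normalization and 2185 lower with no filter, where 31165 genes were tested. In mimic livers 92 genes rose 2-fold with a mean of 50 or more. The cause of these shifts was not tested. The share of rises among calls was 49.9% with TMM scaling and 54.1% after quantile normalization, against 42.6%. With no filter the median log2 difference of all genes was -0.46. With the trend with transcript length removed, 4659 genes passed in scrambled livers (1911 higher, 2748 lower), against 4765. In mimic livers 3658 passed, against 4163.

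The count of genes whose age effect differed between oligonucleotides ran from 1 to 13 when 1 of the 6 scrambled libraries was left out (13 without P7 replicate 1) and was 9 without P7 replicates 2 and 3. No mimic library was left out.

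Libraries with the same replicate number at P7 and P14 deviated from their group means with correlations of -0.11, -0.09 and 0.15. Those with unlike numbers ran from -0.15 to 0.20. With 3 libraries per group this check cannot decide whether the numbers pair the livers. With the replicate number as a block, 4638 genes passed in scrambled livers (1942 higher, 2696 lower), 4003 in mimic livers and 6 for the difference, against 1 without it. Depth of reads is unknown here and limits genes near a mean of 10.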
